A study of Mus musculus with 3 samples.

Results

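A group of 8 genes of Schwann cells and of the neural crest was followed on the 3 arrays of the study: Sox10, Cdh19, Scn7a, L1cam, Pmp22, Ngfr, Erbb3 and Foxd3, which are 8 of 22180 genes that have a probe set of their own. They were chosen by name and selected on their levels on these same arrays, so their values are a description and carry no test. Each array measured 1 cell type. The induced astrocytes (iAs) were mouse embryonic fibroblasts of GFAP-GFP transgenic mice, treated for 25 days with the small-molecule mix VCSTO (CHIR99021, valproic acid, tranylcypromine, SB-431542 and OAC1) and sorted for GFP, which a Gfap promoter drives in these mice. The primary astrocytes (pAs) came from the cortex of mice at postnatal day 2, and the mouse embryonic fibroblasts (MEFs) from E13.5 embryos. The labels give the VCSTO treatment for every sample, and its assignment to the iAs alone follows the study's methods. How many animals are behind each array is not given in the sources used here. With 1 array per cell type there is no spread between samples, so no difference carries an error or a p-value. All values are log2 expression after RMA (robust multi-array average), and genes are called higher or lower from a 1.5-fold difference, 0.585 on the log2 scale.

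The neural crest is a transient population of the embryo that leaves the dorsal neural tube and forms peripheral neurons and glia, melanocytes, enteric neurons and part of the mesenchyme of the head. Its glial branch passes through Schwann cell precursors and immature Schwann cells, which depend on neuregulin from axons and its receptor ErbB3, and ends in myelinating and non-myelinating Schwann cells. Sox10 is held throughout this branch, whereas early crest regulators such as Foxd3 are turned down as the cells mature. Gfap is best known from astrocytes, but immature and non-myelinating Schwann cells also express it. Sox10 is in addition a factor of oligodendrocytes in the brain, so the markers of several cell types were read beside it.

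Of the 8 genes, 7 exceeded their MEF level in iAs, by 4.66-fold to 36.4-fold, and Pmp22 lay within 1.5-fold. Among all named genes, 8.84% were higher and 10.0% lower by this threshold in the same comparison. In pAs the genes were not higher than in MEFs: 6 were lower, by 1.66-fold to at least 3.39-fold, and Cdh19 and Pmp22 lay between the thresholds, against 12% of named genes higher and 11.0% lower. Between iAs and pAs, 7 were higher in iAs, against 8.67% of named genes higher and 11.1% lower. The array is of bulk RNA, in which fewer cells of a type and less RNA per cell cannot be told apart. The median difference of the 8 genes was 3.43 for iA minus MEF -0.92 for pA minus MEF and 4.64 for iA minus pA, while that of all named genes was 0.00 in each. The differences from MEFs share the MEF array. Levels in the order iA above MEF above pA were found for 7 of the 8 genes and for 9.70% of all named genes. Differences of at least 1.5-fold upward in iAs and downward in pAs were found for 6 of them and for 240 named genes (1.08%).

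**Figure D1:**
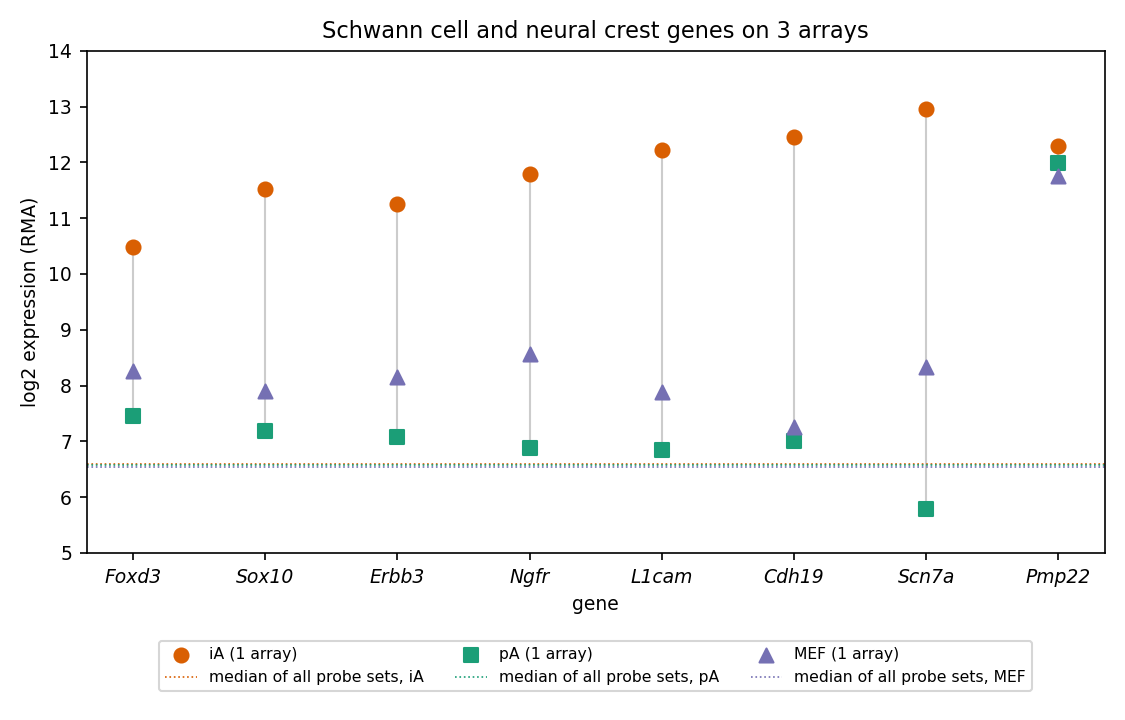
Log2 expression (RMA) of the 8 genes on the arrays of iAs (circles), pAs (squares) and MEFs (triangles), 1 array each, with each array's median over all probe sets as a dotted line. The 7 genes other than Pmp22 lie between 10.47 and 12.95 in iAs, between 7.26 and 8.56 in MEFs and between 5.79 and 7.46 in pAs.

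Foxd3, a forkhead factor that marks and maintains premigratory crest cells, stood at 10.47 on the log2 scale in iAs, 8.25 in MEFs and 7.46 in pAs. Its rise from MEFs to iAs, 4.66-fold, was the smallest among the 7 genes, and pAs lay 1.74-fold below MEFs. Sox10, the high mobility group factor of the glial and melanocyte branches, stood at 11.53 in iAs, 7.91 in MEFs and 7.18 in pAs. The iA level was 12.2-fold that of MEFs and 20.4-fold that of pAs. For both factors the iA array stood apart from the other two, which lay within 1.74-fold of each other.

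Among the receptors, Erbb3, which binds neuregulin and signals together with ErbB2, stood at 11.26 in iAs, 8.16 in MEFs and 7.07 in pAs. Relative to MEFs it was thus up 8.58-fold in iAs and down 2.13-fold in pAs. Ngfr, which encodes the neurotrophin receptor p75 and is used to sort crest cells and immature Schwann cells, stood at 11.80 in iAs, 8.56 in MEFs and 6.87 in pAs. The iA level was 9.42-fold that of MEFs and 30.4-fold that of pAs, and pAs lay 3.22-fold below MEFs. The MEF level of Ngfr thus lay further above pAs than those of Sox10, Erbb3, Foxd3 and L1cam.

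Of the surface molecules, L1cam, an adhesion molecule of the immunoglobulin family on axons and on immature and non-myelinating Schwann cells, stood at 12.22 in iAs, 7.88 in MEFs and 6.84 in pAs. Against MEFs this was a 20.3-fold higher level in iAs and a 2.06-fold lower level in pAs. L1cam lies on the X chromosome. Xist, the RNA that silences one X chromosome in female cells, stood at 6.64 in iAs, 11.79 in MEFs and 11.45 in pAs. What part the Xist difference has in the iA differences of L1cam and of the other genes was not tested. Cdh19, a type II cadherin of Schwann cell precursors, stood at 12.45 in iAs, 7.26 in MEFs and 7.00 in pAs. At 36.4-fold it had the largest iA to MEF difference of the 8 genes and ranked 10 from the top among all named genes, and its MEF and pA levels differed by 0.26.

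Scn7a encodes Nax, a sodium channel relative that responds to extracellular sodium and is found in non-myelinating Schwann cells and in glia of sodium-sensing brain regions. Its level was 12.95 in iAs, 8.33 in MEFs and 5.79 in pAs, the last below that array's median of 6.57. The values carry no detection calls, so where a level lies below its array's median, the fold is taken from the median instead, as a lower bound. Counted so, the iA level of Scn7a was 24.7-fold that of MEFs and at least 83.7-fold that of pAs, and pAs lay at least 3.39-fold below MEFs. The other low levels of the 8 genes lay above the medians of their arrays over all probe sets, which were 6.57 in pAs and 6.53 in MEFs. Over named genes alone the medians were 7.15 in pAs and 7.17 in MEFs. The pA levels of L1cam, Ngfr, Cdh19 and Erbb3 lay below the former, so their folds against pAs also rest on low levels.

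Pmp22, a membrane protein of compact peripheral myelin that many other cells also make, was the exception. Its levels were 12.29 in iAs, 11.99 in pAs and 11.76 in MEFs, and the 3 arrays lay within 1.44-fold of each other. The iA minus MEF difference of 0.53 was just under the threshold, whereas Foxd3, the nearest gene above it, was at 2.22.

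**Figure D2:**
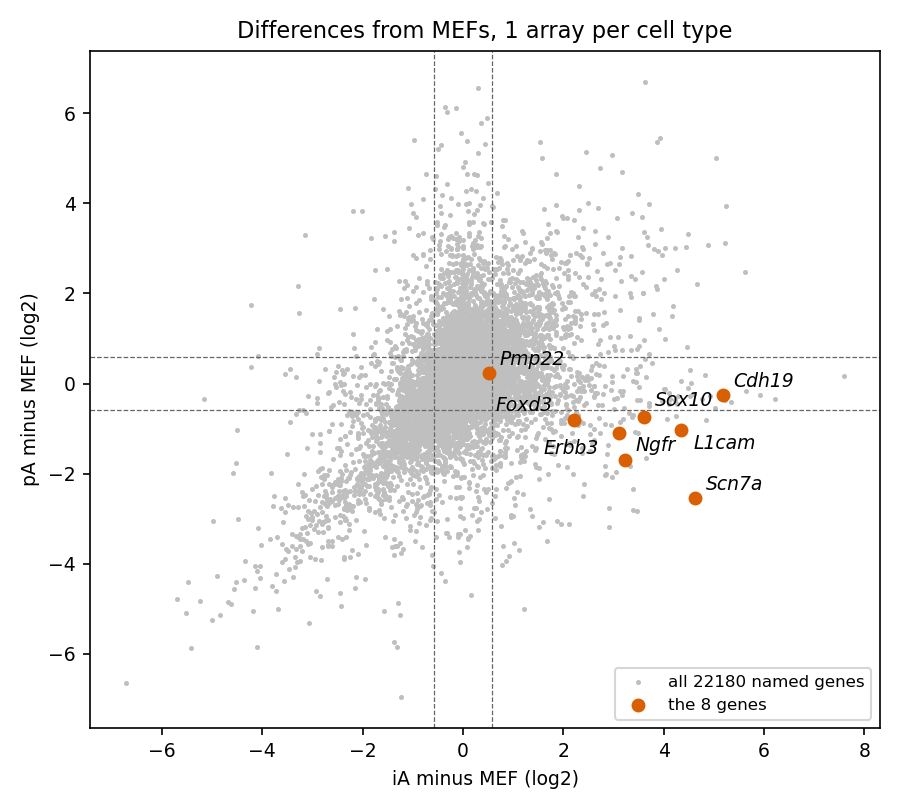
Difference from MEFs on the log2 scale in iAs (x axis) and in pAs (y axis) for all 22180 named genes (grey) and the 8 genes (orange), with the 1.5-fold thresholds dashed. Other than Pmp22, the genes lie to the right of the upper threshold at 2.22 to 5.19 and between -2.54 and -0.26 on the y axis, and Pmp22 is inside the thresholds; both axes subtract the same MEF array.

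Promoter windows of 300 bases, from 250 before to 50 after a gene's start, were read from RefSeq (GRCm38.p6) for 5 of the 8 genes, with 9 windows in all. They are shown for 4 genes higher in iAs, with 1 of the 2 starts of L1cam, and for 1 of the 4 starts of Pmp22, with CpG dinucleotides, the sites at which mammalian DNA is methylated, in capitals. The Scn7a window (chr2:66784861-66785160, minus strand) and that of Pmp22 (chr11:63128732-63129031, plus strand) held 3 CpGs each. Those of Foxd3 (chr4:99656049-99656348, plus strand), L1cam (chrX:73880741-73881040, minus strand) and Ngfr (chr11:95587649-95587948, minus strand) held 25, 25 and 23, against a median of 7 over 32841 windows.
Scn7a: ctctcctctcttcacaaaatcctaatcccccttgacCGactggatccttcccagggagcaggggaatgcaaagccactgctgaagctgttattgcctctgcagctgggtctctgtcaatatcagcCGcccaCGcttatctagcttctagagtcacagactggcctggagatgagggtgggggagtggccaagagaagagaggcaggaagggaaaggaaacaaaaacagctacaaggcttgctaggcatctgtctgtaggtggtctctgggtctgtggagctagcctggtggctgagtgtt
Foxd3: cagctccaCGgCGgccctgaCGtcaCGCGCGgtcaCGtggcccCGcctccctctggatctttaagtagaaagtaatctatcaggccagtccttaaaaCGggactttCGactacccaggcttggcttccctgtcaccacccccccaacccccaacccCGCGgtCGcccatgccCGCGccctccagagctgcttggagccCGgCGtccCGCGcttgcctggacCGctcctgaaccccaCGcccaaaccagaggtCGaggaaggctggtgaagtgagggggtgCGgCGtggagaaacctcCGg
L1cam: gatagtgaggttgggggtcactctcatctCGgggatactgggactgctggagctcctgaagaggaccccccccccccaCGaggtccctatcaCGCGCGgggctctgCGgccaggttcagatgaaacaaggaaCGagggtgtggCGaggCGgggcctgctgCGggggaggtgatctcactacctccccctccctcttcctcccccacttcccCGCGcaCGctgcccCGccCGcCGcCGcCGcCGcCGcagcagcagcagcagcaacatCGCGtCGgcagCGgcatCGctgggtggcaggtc
Ngfr: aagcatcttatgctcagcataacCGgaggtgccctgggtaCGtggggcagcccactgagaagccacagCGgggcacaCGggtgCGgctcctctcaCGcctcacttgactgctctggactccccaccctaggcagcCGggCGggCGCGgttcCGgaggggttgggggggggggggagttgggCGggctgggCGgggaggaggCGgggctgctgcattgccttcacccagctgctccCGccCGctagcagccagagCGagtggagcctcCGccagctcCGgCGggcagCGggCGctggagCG
Pmp22: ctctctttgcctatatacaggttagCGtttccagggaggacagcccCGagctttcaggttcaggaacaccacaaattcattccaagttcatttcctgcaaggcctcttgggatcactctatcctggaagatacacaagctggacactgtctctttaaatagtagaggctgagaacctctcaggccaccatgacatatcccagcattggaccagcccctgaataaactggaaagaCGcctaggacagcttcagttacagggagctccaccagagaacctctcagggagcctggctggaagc

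Scn7a, with few CpGs, and Foxd3, L1cam and Ngfr, with many, had the same order of levels across the arrays. Fewer CpGs than in the Scn7a window were found in 23.3% of all windows, and fewer than in the Foxd3 window in 81.6%. The second start of L1cam held 22 CpGs. The other 3 starts of Pmp22 held 18, 20 and 30 CpGs, and the array's single probe set for Pmp22 was not resolved by start. The letters ACAAAG and ACAATG, short forms of the site that SOX factors bind, and TAAACA, a forkhead site, were searched on both strands. None of the 9 windows held any of the 3, which were found in 18.7%, 12.6% and 13.4% of all windows. Sox10, Cdh19 and Erbb3 had no window. The share of G and C bases ran from 50.7% to 72.3% in the 9 windows, mostly above the median of 52.7% over all windows. The shares of all windows are not matched for this. The search says only that these letters are not within these 300 bases.

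The relatives of these genes differed among themselves across the arrays. Of the SoxE factors, Sox9, which astrocytes and cartilage use, stood at 12.60 in pAs, 10.33 in MEFs and 9.06 in iAs, so that MEFs lay 2.41-fold above iAs and 4.84-fold below pAs, the opposite order to that of Sox10. Sox8 rose 1.87-fold from MEFs to iAs, and its pA minus MEF difference was 0.35. Foxd2 was 1.82-fold higher in iAs, while Foxd1 and Foxd4 lay below the median of the iA array.

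For the receptor of neuregulin, its family moved apart: Egfr, the receptor of epidermal growth factor, fell 4.53-fold from MEFs to iAs, and Erbb2, the partner of ErbB3, was at 9.39 in iAs, 9.62 in pAs and 9.76 in MEFs, within 1.5-fold on all arrays. Erbb4 lay below the array median in iAs and MEFs. Of the 14 neuregulin and ErbB genes other than Erbb3, 3 were higher in iAs and 3 lower, with a median iA minus MEF difference of 0.04. The largest was that of Lgi4, which encodes a protein that Schwann cells secrete and need for myelination, at 11.48 in iAs, 7.13 in MEFs and 7.20 in pAs, a 20.4-fold excess of iAs over MEFs. Its receptor gene Adam22 had levels of 7.54, 6.50 and 8.14 in the same order. Nrg1, the neuregulin of axons, fell by 1.31 on the log2 scale in iAs and rose by 1.27 in pAs, and Adam10, a sheddase of the cell surface, rose 2.71-fold in iAs.

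L1cam's relatives Chl1 and Nrcam, neural adhesion molecules of the same family, exceeded their MEF levels in iAs by 25.3-fold and 29.3-fold and, unlike L1cam, also in pAs, by 4.59-fold and 8.46-fold. Cntn2 lay at 6.97, 6.90 and 6.97 in iAs, pAs and MEFs. Nfasc and Cntn1, adhesion molecules of nodes and axons, were higher in pAs than in MEFs, by 2.04 and 2.22 on the log2 scale, with iA minus MEF differences of 0.42 and -0.19. Of 12 other type II cadherins measured, 2 were higher and 2 lower in iAs. Cdh6 rose 3.17-fold from MEFs to iAs, and Cdh11, a cadherin of mesenchyme, fell 8.85-fold in iAs and 5.52-fold in pAs. Among 7 other sodium channel alpha subunits, the 1 called higher in iAs was Scn9a, a channel of sensory and sympathetic neurons, at least 1.87-fold. Emp2, a relative of PMP22, lay at 11.47, 11.30 and 11.08 in iAs, pAs and MEFs. The PMP22 relatives Emp1 and Emp3 fell from MEFs to pAs by 6.10-fold and 2.99-fold, Emp1 also in iAs by 2.02-fold, and Perp, a desmosome protein of the family, was 2.98-fold up in iAs and 2.07-fold in pAs.

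Among the 12 neurotrophins and p75 partners measured beside Ngfr, 3 were called higher and 3 lower in iAs. Sorcs2 and Sort1, which encode coreceptors of p75 for proneurotrophins, rose 2.38-fold and 2.18-fold from MEFs to iAs. Bex3 and Maged1, which encode proteins that bind the inner part of p75, fell 4.39-fold and 2.08-fold. Ntrk2, the receptor of brain-derived neurotrophic factor, stood at 11.09 in pAs and below the median of the iA array, at 6.22. Thus p75 and Ntrk2 lay on opposite sides of MEFs in pAs, at -1.69 and 4.31 on the log2 scale.

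**Figure D3:**
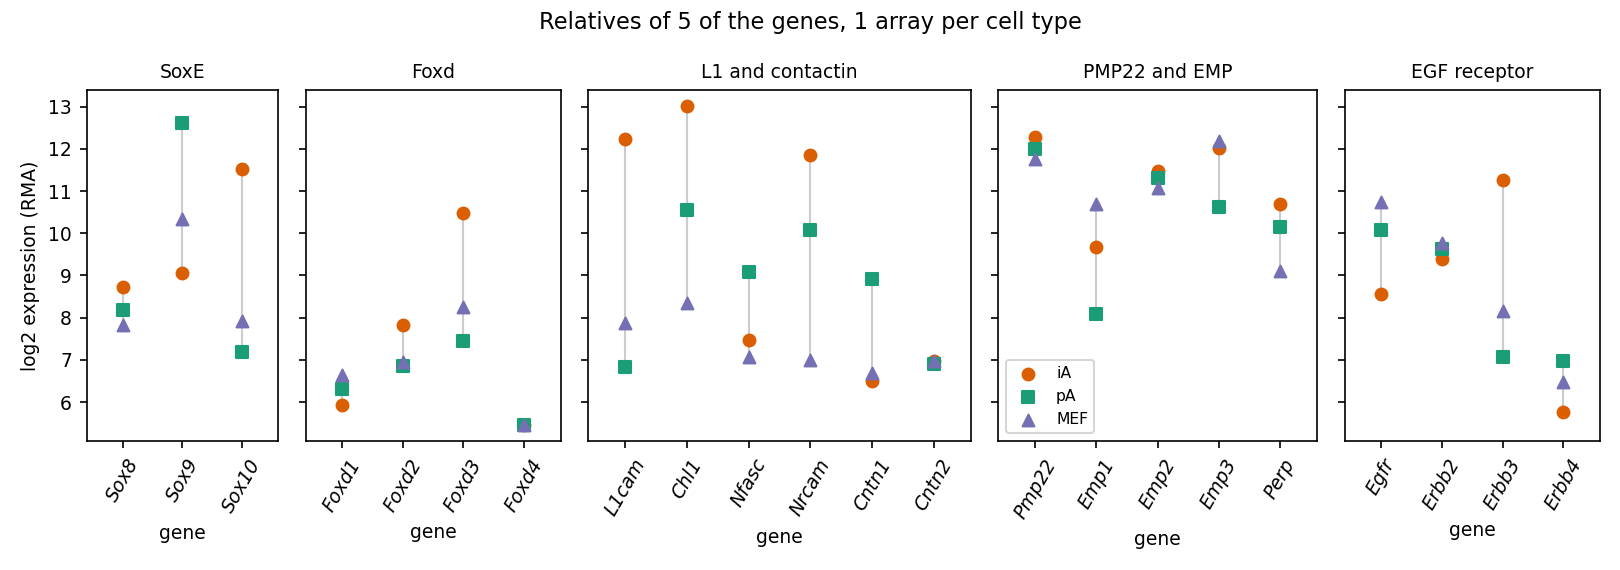
Log2 expression (RMA) of Sox10, Foxd3, L1cam, Pmp22 and Erbb3 and of their relatives on the arrays of iAs (circles), pAs (squares) and MEFs (triangles), 1 array each, by gene. Sox9 is highest in pAs (12.60) where Sox10 is lowest (7.18), and Erbb3 is the one receptor of its family that is highest in iAs (11.26).

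Lists of genes for the stages of the lineage were read with the 8 genes set aside. The lists were drawn from textbook knowledge with earlier results of these arrays known. Of 13 other genes of immature Schwann cells and their precursors, 8 were higher and 1 was lower in iAs than in MEFs. Their median difference from MEFs was 1.14. In pAs 4 were higher and 4 lower than in MEFs, with a median of 0.19. Compared directly with pAs, 6 of the 13 were higher in iAs and 4 lower, with a median of 0.20. Itga4, an integrin subunit of crest cells, stood at 10.99 in iAs, 7.65 in MEFs and 5.83 in pAs, a 10.1-fold excess of iAs over MEFs. Tfap2a, an activator of crest genes, was up 5.77-fold in iAs and down 1.89-fold in pAs, and Dhh, the hedgehog ligand that Schwann cells send to the nerve sheath, was up 3.83-fold in iAs. Sox2, which immature Schwann cells share with neural stem cells and astrocytes, was higher in both, 7.78-fold in iAs and 33.8-fold in pAs. Sfrp1, a Wnt inhibitor, was the 1 gene lower in iAs, at 2.29-fold.

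Genes of non-myelinating and injury-activated Schwann cells were higher in iAs than in MEFs for 7 of 16 genes and lower for 2. The median difference was 0.36. Compared directly with pAs, 8 of the 16 were higher in iAs and 3 lower, with a median of 0.39. Artn and Gdnf, growth factors that Schwann cells make after nerve injury, exceeded their MEF levels in iAs by 6.47-fold and 4.40-fold. In pAs both lay below the array's median, so that Artn was at least 1.31-fold and Gdnf at least 1.62-fold below MEFs. Gfap and S100b, which astrocytes and Schwann cells share, were higher in both. Gfap, among the 7 higher in iAs, rose 15.1-fold there and 44.0-fold in pAs. A Gfap promoter drives the reporter by which the iAs were sorted, so the place of Gfap in this count is not independent of the sort. The part of the sort in its level was not tested. S100b rose at least 13.7-fold in iAs and at least 2.10-fold in pAs. Jun, the transcription factor of the injury response, had a difference of -0.58 in iAs, and Igfbp2, which binds insulin-like growth factors, fell 3.36-fold.

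The genes of the myelin stage were centred on no difference. Of 15 myelinating Schwann cell genes other than Pmp22, 4 were called higher and 2 lower in iAs, with a median difference of 0.00. Egr2, the factor that turns on peripheral myelin genes, fell from MEFs by 2.46-fold in iAs and 3.15-fold in pAs. Pou3f1, which acts before it, lay at 6.61, 6.55 and 6.55 in iAs, pAs and MEFs, Mbp, a myelin protein of the central and peripheral nervous system, at 7.26, 6.55 and 6.78, and Mag at 5.32 on each array. Higher in iAs were Mal, a membrane protein of myelin and of epithelia, by 3.76 on the log2 scale, and Cnp, a phosphodiesterase of myelinating glia, and Drp2, a scaffold of the Schwann cell surface, by 4.96-fold and 1.94-fold. Cnp and Drp2 were up in pAs as well, by 5.15-fold and 3.04-fold. Pmp2, a fatty acid binding protein of peripheral myelin, was called higher at an iA level of 6.81, which is at least 1.21-fold above MEFs when counted from the array median.

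Sox10 acts on genes outside myelin too. Of 9 such targets other than Erbb3 and Cdh19, 5 were higher in iAs than in MEFs and none was lower. Itga4, Ednrb and S100b are among the 5 and were also counted in the lists above. In pAs 4 of the 9 were higher and 3 lower than in MEFs. Compared directly with pAs, 4 were higher in iAs and 3 lower, with a median of 0.11. Ret, the receptor of the GDNF family that guides enteric and sympathetic precursors, stood at 12.06 in iAs, 7.75 in MEFs and 6.76 in pAs, a 19.9-fold excess of iAs over MEFs. Gjc3, a connexin of myelinating glia, rose 10.7-fold. Kcnj10, a potassium channel of astrocytes and satellite glia, went the other way, at 13.48 in pAs, 7.46 in MEFs and 7.14 in iAs. The targets of the pigment cell branch, Mitf and Dct, differed by less than 1.5-fold between any pair of arrays. Of 11 melanocyte genes none passed the threshold in iAs. However, 8 of the 11 lay below the median of the iA array, and Tyr, Pmel, Mlana and Mc1r had the same value on each array.

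Early crest specifiers were divided. Without Sox10 and Foxd3, 2 of 13 were higher and 5 were lower in iAs, with a median difference of 0.00. The 2 were Tfap2a and Sox8. Snai2 and Twist1, factors that crest cells and mesenchyme share, fell from MEFs to iAs by 2.63-fold and 2.74-fold and to pAs by 8.34-fold and 3.27-fold. Zic1, a zinc finger factor of the dorsal neural tube, fell 4.11-fold in iAs and differed by 0.19 in pAs. Pax7 was at 7.21 on each array. Pax3 and Msx2 lay just under the threshold in iAs, at 0.58 each, and passed it when the arrays were centred on bright probe sets, which made 6 of 15 higher in place of 4 with Sox10 and Foxd3 included.

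The autonomic branch of the crest was read through 12 neuron genes, of which 6 were higher in iAs and none was lower, with a median difference of 0.46. Dbh, the enzyme that makes noradrenaline, stood at 11.16 in iAs, 6.24 in MEFs and 5.95 in pAs, an excess of iAs over MEFs of at least 24.6-fold. Chrna3, a subunit of the nicotinic receptor of ganglia, was at least 18.2-fold higher, and the sympathetic factors Hand2 and Gata2 were 7.34-fold and 4.90-fold higher. Th, the first enzyme of the same pathway, lay at 6.94 in iAs and 6.89 in the other cells, and Isl1 and Pou4f1, factors of sensory neurons, within 1.5-fold of MEFs. General neuron markers, which share Stmn2 with these 12 genes, moved in the same direction. Of 11 markers, 7 were higher in iAs and none lower, among them Snap25 at 32.6-fold. At a fold of 2 the count was 4, and counted from the array median Nefm and Elavl4, 2 of the 7, were at least 1.14-fold and 1.11-fold higher, while Rbfox3 and Dcx had differences of -0.04 and -0.27. The mean level of the 11 markers was 8.45 in iAs, 7.28 in pAs and 7.21 in MEFs, and their part in the levels of the 8 genes was not tested.

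**Figure D4:**
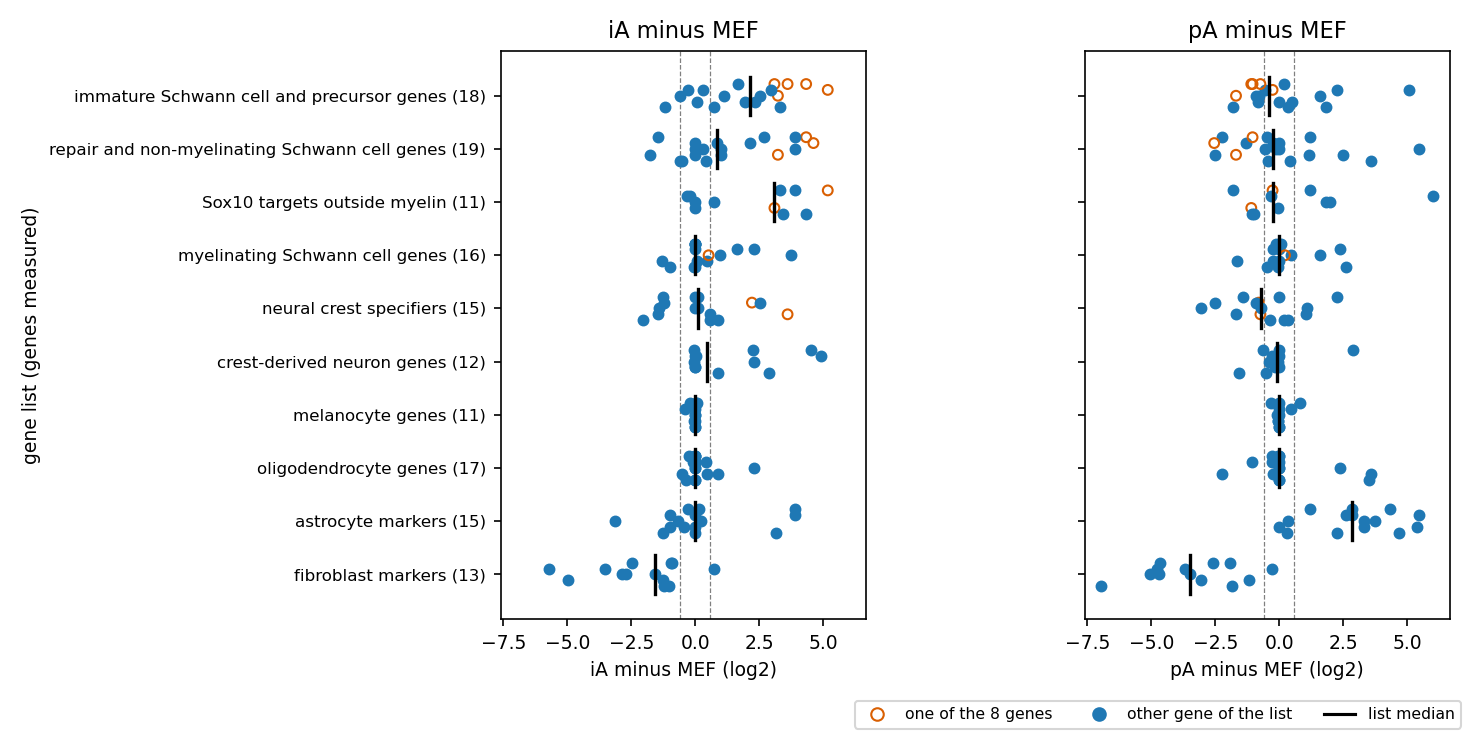
Difference from MEFs on the log2 scale in iAs (left) and in pAs (right) for each measured gene of 10 lists, with the 8 genes as open circles, other genes filled, list medians as bars and the 1.5-fold thresholds dashed. The bar of the immature Schwann cell list, with 5 of the 8 genes included, lies at 2.14 in iAs and -0.41 in pAs. Without those 5 its median is 1.14 in iAs and 0.19 in pAs. The bar of the astrocyte markers lies at 0.00 in iAs and 2.85 in pAs. Both panels subtract the same MEF array.

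Markers of other cells were read on the same arrays. Of 15 astrocyte markers, 12 were higher in pAs and none was lower, whereas in iAs 3 were higher and 5 lower, or 2 lower at a fold of 2. The 3 were Gfap, S100b and Atp1b2, of which Gfap drives the reporter used for the sort. Aqp4 and Slc1a3, the water channel and a glutamate transporter of astrocytes, stood at 5.82 and 5.88 in iAs, below that array's median, and at 12.20 and 12.32 in pAs. Counted from the median, the fall of Aqp4 from MEFs to iAs is at least 1.16-fold and that of Slc1a3 at least 5.39-fold. Of the others in pAs, Gja1 and Ntsr2 lay within 1.5-fold of MEFs, and Gjb6 was at 5.49 on each array, below the medians. Of 17 oligodendrocyte genes, 2 were higher in iAs, Cnp and Cspg4, and Olig1 and Olig2, the factors that accompany Sox10 in that lineage, were at 6.74 and 6.04 in iAs and at 10.84 and 9.92 in pAs. Mog, Mobp and Opalin lay within 1.5-fold on all arrays. However, 9 of the 17 lay below the median of the iA array, and Mobp and Opalin had the same value on each array. Of 13 fibroblast markers, 12 fell and 1, Thy1, rose from MEFs to iAs, and 12 fell in pAs. Dcn, a proteoglycan of connective tissue, fell 31.6-fold in iAs and 8.24-fold in pAs, and Lum, a relative of it, at least 21.3-fold and at least 21.6-fold. The mean level was 9.34 in iAs, 8.12 in pAs and 11.52 in MEFs for the fibroblast markers, and 8.23, 10.84 and 7.99 for those of astrocytes. No marker of microglia or skeletal muscle rose in iAs, where Tmem119 of microglia fell 4.05-fold and Myog, a factor of muscle, 2.21-fold, and of 7 markers of endothelium 1, Kdr, did. The MEF levels of the 7 genes, 7.26 to 8.56, lay above those in pAs. The study stained its MEFs for markers of neural lineages, GFAP among them, and reported none. Whether crest cells or Schwann cells were among the MEFs of this array was not tested here.

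The genes nearest to each of the 8 were found by the Euclidean distance of the 3 log2 levels, each gene centred on its own mean, among 13286 genes whose highest level reached its array's median. Over 3 arrays such likeness is coarse. Nearest to Sox10 were Sprr2g, Gfra3, AI593442, Gjc3 and Npy, at distances of 0.17 to 0.25. Gfra3, the receptor of artemin in sensory and sympathetic neurons, stood at 11.00 in iAs, 7.62 in MEFs and 6.88 in pAs, and Npy, which encodes neuropeptide Y, at 12.54, 9.06 and 7.97. L1cam lay nearest to Ret, at a distance of 0.05, and next to Gldn, whose product gliomedin clusters sodium channels at peripheral nodes, at 12.03 in iAs, 7.79 in MEFs and 7.07 in pAs. Ngfr lay next to Deptor, an inhibitor of mTOR, and to Itga4, at 0.06 and 0.17. Cdh19 lay next to H2-M1 and to Htr3a, a serotonin-gated channel of peripheral neurons, at 0.04 and 0.10, Erbb3 next to Ly6c1 and Fyb at 0.02 and 0.19, and Foxd3 next to Cdk18 and Arap3 at 0.05 and 0.08. Scn7a had no near neighbour, with Col14a1 and Slc5a7, a collagen and the choline transporter of cholinergic neurons, at 0.86 and 0.92. Pmp22 lay nearest to Sike1 and Arl2, at 0.01 and 0.02, both within 1.5-fold on all arrays.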

How the data were processed

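Gene expression of iAs, pAs and MEFs was profiled with the Affymetrix Mouse Gene 2.0 ST platform. The deposited values are log2 expression per probe set, which the authors made by RMA in Partek Genomics Suite, with MAS5 also named in their processing notes. Versions are not given in the sources used here. Of 41345 probe sets, 23521 carry 1 symbol in GEO's platform annotation, 1820 several and 16004 none. The 8 genes have 1 probe set each, and their Entrez IDs and symbols matched RefSeq for all 8. Other genes with more than 1 probe set were averaged, giving 22180 named genes. The value of 20.1% of probe sets was the same on each array. Array medians were 6.59 in iAs, 6.57 in pAs and 6.53 in MEFs.

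Differences between arrays were computed with Python 3.11.15, numpy 2.4.6 and pandas 2.3.3, and drawn with matplotlib 3.10.9. The threshold of 1.5-fold is that of the study's methods. No test across samples was possible, the number of arrays limits the precision, and the raw intensities were not used. The 8 genes and 22 further lists (215 of 230 genes measured) were chosen with earlier results of these data known. The rule for names took the 8 genes, small families, 2 to 4 genes of each other list with the largest differences, defining genes of the lineage and the nearest genes by likeness. Other members of the lists were named after their values were seen. CpG counts were added after the sequences were seen. The computation was tested on simulated data. Alternatives were quantile normalization, an offset of 32 added to linear values, centring on bright probe sets, the brightest probe set of a gene, a fold of 2 and a filter on dim genes.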

Additional observations from a re-analysis of the deposited data

Results flagged for a closer look

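Of the 8 genes, 6 were higher than on the MEF array in iAs and lower in pAs, each by at least 1.5-fold. The same pattern was found for 240 named genes (1.08%). The 8 genes were selected on their levels on these same arrays. With 1 array per cell type, the difference between iAs and pAs was not tested. The gap between the iA and pA values was 4.35 for Sox10, 7.17 for Scn7a, 5.38 for L1cam, 4.92 for Ngfr, 4.19 for Erbb3 and 3.02 for Foxd3 on the log2 scale. For Scn7a the pA level lies below its array's median, and the gap counted from that median is at least 6.39.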

How the results depend on the processing

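No paired analysis was possible because there is 1 array per cell type. The counts of the 8 genes higher and lower in each comparison moved by no more than 1.5 times under any of the 6 alternatives, and no difference of 1.5-fold changed its sign. At a fold of 2, Sox10 (-0.73) and Foxd3 (-0.80) were no longer called lower in pAs than in MEFs, leaving 4 of 8. An offset of 32 drew the differences of low levels toward 0, that of Scn7a between iAs and pAs from 7.17 to 6.51. Quantile normalization brought Pmp22 in iAs to 0.57, still under the threshold. The counts of other lists moved more. At a fold of 2, genes higher in iAs than in MEFs went from 7 to 4 for neuron markers and from 2 to 1 for oligodendrocyte genes, and genes lower went from 5 to 2 for astrocyte markers and from 2 to 1 for myelinating Schwann cell genes and for type II cadherins. With the 8 genes included, the genes of immature Schwann cells lower in pAs went from 8 to 4 at that fold, and those lower in iAs from 1 to 2 under quantile normalization. Neither the background correction nor the summary of probes could be varied, and without detection calls a low level cannot be told from background.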
